A study of Mus musculus with 12 samples.

Results

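The comparison is of kidneys taken 14 days after diphtheria toxin with kidneys taken 5 days after it, in Pod-TRECK mice, and it covers 6 of the 12 libraries of the study, chosen by their labels and by no measured value. In these transgenic mice podocytes, the epithelial cells wrapped around the glomerular capillaries, bear a receptor for the toxin, which kills them and spares other cell types. The day-14 group and the day-5 group each held 3 kidneys, described as biological replicates, of Pod-TRECK mice that had been given 100 ng of toxin intraperitoneally, and all of them had therefore received the toxin. The remaining libraries were 3 of untreated Pod-TRECK mice, used here only for levels, and 3 from day 21. Whole kidney was extracted, so podocyte RNA is a small part of each library, and messenger RNA was selected by its poly(A) tail. All libraries carry 1 batch label, and the background strain, age and hour of harvest are unknown from the sources used here. The labels give no sex, but every library had 1 to 3 counts of Xist and 1734 to 2593 counts of the Y-linked gene Ddx3y, the pattern of male kidneys.

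Podocyte loss opens the filtration barrier, and plasma protein then reaches the tubules, whose proximal segment takes filtered protein back up by endocytosis. Proximal tubule cells burn fatty acids in abundant mitochondria to power the transport of glucose, phosphate, amino acids and organic ions. Injured tubule cells are known to lose these transporters, to re-enter the cell cycle and to release chemokines and complement proteins, and lasting injury brings macrophages and matrix-producing fibroblasts. Day 14 against day 5 sets a later stage of this process beside an early one.

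Of 56722 genes in the table, 19026 had enough counts to be tested, and their expression is given as CPM, counts scaled to a common library total, with library sizes scaled by TMM factors, a correction for differences in RNA composition. Values are in the order of replicates 1, 2 and 3, and means are ± SD over n = 3 libraries. Log2 fold changes of day 14 over day 5 are ± a standard error calculated back from the statistic of the test named below. A gene said to have risen or fallen by a value did so on the log2 scale. By edgeR's quasi-likelihood test with Benjamini-Hochberg adjustment, at an adjusted p under 0.05, 6344 genes (33.3% of those tested) rose and 6449 (33.9%) fell. A stricter test, of a change of more than 2-fold, was passed by 1592 genes (8.37%) that rose and 1374 (7.22%) that fell. The first principal component of the 6 libraries held 84.1% of their variance and separated the days, at 70.4 to 73.5 for day 14 and -75.7 to -69.7 for day 5. Total counts were 31023852 to 39493106 at day 14 and 35386127 to 46420299 at day 5.

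With so many genes changed, the scaling sets where no change lies. The 50 largest genes took 22.8 ± 0.208% of counts at day 14 and 36.2 ± 0.85% at day 5, and the TMM factors averaged 1.31 at day 14 and 0.876 at day 5. The median log2 fold change of all tested genes was 0.02 with TMM factors and 0.61 with library totals alone, under which 13064 genes rose and 2438 fell (84.3% of calls were rises, against 49.6% with TMM factors). Changes below are relative to the TMM scale. Of all genes tested 33.3% rose and 33.9% fell, so a list with about as many rises as falls does not stand apart from the rest, and such a list has more rises under library totals. A whole-kidney level cannot tell fewer cells of a type from less RNA per cell. Genes with near-identical copies, such as those of the haemoglobin, Cyp2d, Ly6, serum amyloid and class I MHC families, may share reads, and how such reads were counted is unknown from the sources used here.

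Proximal tubule transcripts were lower at day 14 across the whole list. All 30 of the proximal tubule genes measured fell, 28 of them more than 2-fold, with a median log2 fold change of -2.32, beside a background of 33.9% of all genes falling and 7.22% falling more than 2-fold. Summed over the list, their level was 5240 ± 104 CPM at day 14 and 43700 ± 2050 CPM at day 5, where untreated kidneys held 63100 ± 4950 CPM. The day-14 libraries lay between 5126 and 5330 CPM, and the lowest day-5 library was at 42480 CPM.

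Slc22a7, the organic anion transporter OAT2 (chromosome 17, positions 46743109 to 46749383 of GRCm39, minus strand), had 0.154, 0.123 and 0.122 CPM in day-14 kidneys, against 65.9, 101 and 87.4 CPM in day-5 kidneys, and it fell by 9.27 ± 0.26 (adjusted p = 1.05e-07). Slc7a13, the cystine and glutamate carrier AGT1 of the straight proximal tubule, had 1.47, 2.01 and 2.19 CPM in day-14 kidneys, against 343, 330.5 and 283 CPM in day-5 kidneys. It fell by 7.41 ± 0.15 (adjusted p = 4.79e-08), and its lowest day-5 library was more than 100 times its highest day-14 library. Kap, a kidney androgen-regulated protein (chromosome 6, positions 133826814 to 133830725, minus strand), was among the most abundant transcripts of the day-5 kidney. Its levels were 492, 481 and 445 CPM in day-14 kidneys, against 19635, 22826 and 21313 CPM in day-5 kidneys, and it fell by 5.49 ± 0.091 (adjusted p = 3.15e-08). Among the 12 largest falls of all expressed genes were also Slc22a19, a further organic anion transporter (-7.02 ± 0.15, adjusted p = 5.22e-08), Mep1b, the brush-border metalloprotease meprin beta (-6.13 ± 0.12, adjusted p = 4.79e-08), Dnase1 (-5.68 ± 0.21, adjusted p = 2.82e-07), Hpd, an enzyme of tyrosine breakdown (-5.65 ± 0.17, adjusted p = 1.5e-07), and Dpys, an enzyme of pyrimidine breakdown (-5.83 ± 0.29, adjusted p = 1.13e-06). Only genes whose day-14 and day-5 libraries lay apart could enter that set. Pzp (-6.55 ± 0.22, adjusted p = 1.96e-07), Akr1c14 (-6.49 ± 0.15, adjusted p = 5.22e-08), Ldc1 (-5.90 ± 0.29, adjusted p = 1.13e-06) and Cyp2d12 (-6.92 ± 0.38, adjusted p = 1.81e-06) completed that set.

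The receptors that retrieve filtered protein had smaller falls. Lrp2, the endocytic receptor megalin, had 378, 344 and 387 CPM in day-14 kidneys, against 1679.9, 1666 and 1489 CPM in day-5 kidneys, and it fell by 2.12 ± 0.072 (adjusted p = 2.07e-07). Its partner Cubn, cubilin, fell by 1.64 ± 0.070 (adjusted p = 5.6e-07). Slc34a1, the main phosphate transporter of the brush border, had 379, 383 and 446 CPM in day-14 kidneys, against 2577, 2754 and 2267 CPM in day-5 kidneys and fell by 2.65 ± 0.098 (adjusted p = 2.82e-07). The transcription factor Hnf4a, which drives much of the proximal tubule programme, had 235, 233 and 254 CPM in day-14 kidneys, against 605, 611 and 581.9 CPM in day-5 kidneys, and it fell by 1.32 ± 0.053 (adjusted p = 4.16e-07). At day 5, Lrp2 and Hnf4a lay nearer to the untreated mean, which was 1826 ± 148 CPM for Lrp2 and 684 ± 64.4 CPM for Hnf4a. Day 5 was not tested against untreated kidneys here.

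**Figure D1:**
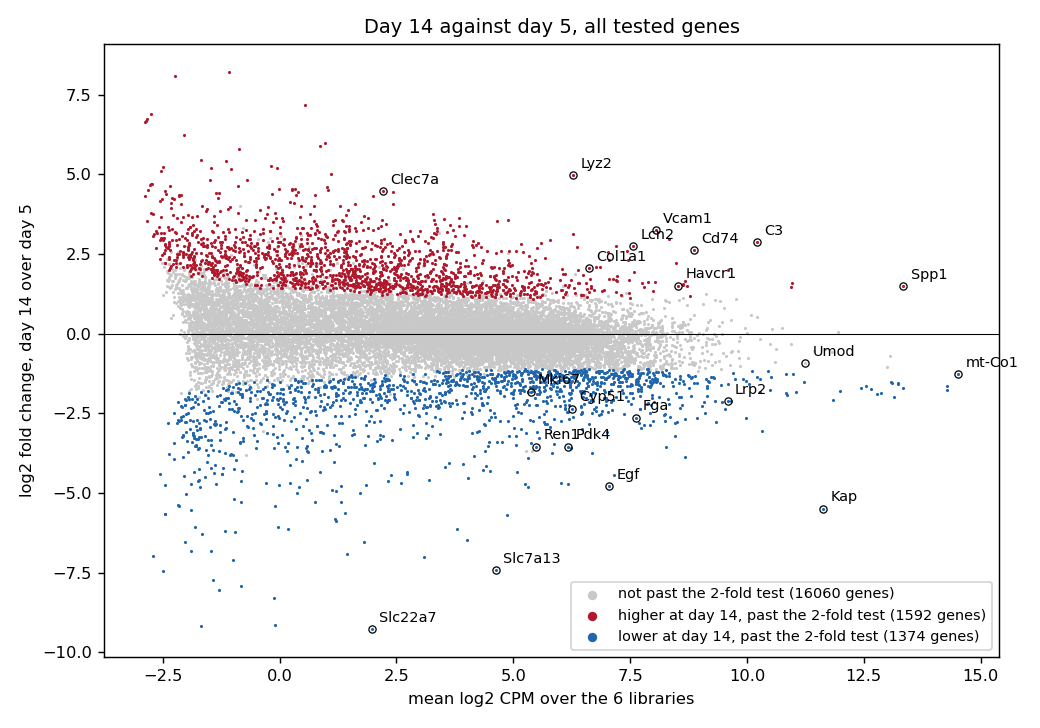
Mean log2 CPM over the 6 libraries (horizontal) against the log2 fold change of day 14 over day 5 (vertical) for the 19026 tested genes, with 1592 red genes higher and 1374 blue genes lower at day 14 by the test of a more than 2-fold change. Abundant falls such as Kap, Egf and the mitochondrial mt-Co1 lie low at the right, while Lyz2, C3, Vcam1 and Lcn2 lie high.

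Mitochondrial and fatty acid genes fell along with those of the proximal tubule. All 13 mitochondrially encoded protein genes fell, 12 of them more than 2-fold, with a median of -1.70, as did all 20 nuclear genes of the respiratory chain, 12 of them more than 2-fold, with a median of -1.18. Transcripts of the mitochondrial genome took 9.22 ± 0.24% of all counts at day 14 and 19.1 ± 0.902% at day 5, where untreated kidneys stood at 23 ± 0.666%. mt-Nd2, a subunit of complex I, fell by 2.08 ± 0.075 (adjusted p = 2.66e-07), and mt-Co1, a subunit of cytochrome oxidase, fell by 1.26 ± 0.063 (adjusted p = 1.12e-06). Among the nuclear genes Ndufs1, a core subunit of complex I, had 87.2, 84.3 and 84.2 CPM in day-14 kidneys, against 282, 263 and 252 CPM in day-5 kidneys. It fell by 1.64 ± 0.054 (adjusted p = 1.9e-07), and Cycs, cytochrome c, fell by 1.42 ± 0.050 (adjusted p = 2.24e-07). The mitochondrial share and the proximal tubule sum were both lower in every day-14 library, and the part of proximal tubule RNA in the mitochondrial fall was not tested.

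Of 23 genes of fatty acid oxidation, 22 fell, 13 of them more than 2-fold, and Cyp4a14 did not pass. The median was -1.38. Acadm, the medium-chain acyl-CoA dehydrogenase that opens a turn of beta-oxidation, had 132, 133 and 113 CPM in day-14 kidneys, against 681, 736 and 784 CPM in day-5 kidneys, and it fell by 2.54 ± 0.084 (adjusted p = 1.92e-07). Its control mean was 773 ± 31.4 CPM. Ehhadh, the bifunctional enzyme of peroxisomes, fell by 2.61 ± 0.11 (adjusted p = 4.5e-07), and Ppara, the nuclear receptor that switches these genes on, fell by 1.52 ± 0.066 (adjusted p = 5.84e-07). Pdk4, a kinase that shuts pyruvate out of the mitochondrion and is itself a PPAR target, followed another course. It had 24.3, 23.3 and 15.96 CPM in day-14 kidneys, against 243, 253 and 250.5 CPM in day-5 kidneys, and untreated kidneys had 20.2 ± 3.19 CPM, so that the day-5 libraries stood above both other groups. Pdk4 fell by 3.55 ± 0.15 (adjusted p = 4.84e-07).

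Antioxidant genes fell as well, 14 of 15 measured, with Slc7a11, the cystine importer, rising by 1.48 ± 0.34 (adjusted p = 0.00549) at a low level. The median was -1.02. Gpx3, the secreted glutathione peroxidase that proximal tubules supply to plasma, had 4669, 4580.4 and 4324 CPM in day-14 kidneys, against 19041, 17874 and 17243 CPM in day-5 kidneys. Gclc, which makes the first step of glutathione synthesis, fell by 1.86 ± 0.12 (adjusted p = 3.64e-06), and Hmox1, haem oxygenase 1, fell by 1.23 ± 0.076 (adjusted p = 3.49e-06). The day-14 and day-5 libraries did not overlap for any of these genes, which was also so for 72.3% of all genes tested.

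Of 22 genes of cholesterol synthesis and its control, 8 rose, 8 fell and 6 did not pass, with a median of 0.07, shares near those of all genes (33.3% rising and 33.9% falling). Under library totals 16 rose and 4 fell, with a median of 0.65. The enzymes Cyp51 and Idi1 fell, Cyp51 at 33.2, 31.6 and 36.6 CPM in day-14 kidneys, against 175, 173 and 171 CPM in day-5 kidneys (log2 fold change -2.35 ± 0.060, adjusted p = 7.85e-08), and Hmgcs1, which feeds the pathway, fell by 1.30 ± 0.059 (adjusted p = 7.16e-07). Fdps, which makes farnesyl diphosphate, went the other way and had 23.02, 21.9 and 24.9 CPM in day-14 kidneys, against 14.5, 14.6 and 15.5 CPM in day-5 kidneys, and it rose by 0.65 ± 0.066 (adjusted p = 5.85e-05).

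Glycolysis genes were also mixed, with 5 rising, 8 falling and 4 not passing of 17, beside 33.3% of all genes rising and 33.9% falling. Their median of -0.17 became 0.41 under library totals. Pgk1 (-1.09 ± 0.059, adjusted p = 1.77e-06) and Pgam1 (-0.98 ± 0.055, adjusted p = 2.16e-06), enzymes of later steps, fell, while Pkm, of the last step, rose by 0.33 ± 0.060 (adjusted p = 0.00169). Hexokinase 2, Hk2, which commits glucose to the pathway, was nearly absent in untreated kidneys at 1.28 ± 0.850 CPM. It had 15.2, 15.5 and 13.5 CPM in day-14 kidneys, against 1.98, 2.49 and 2.36 CPM in day-5 kidneys, and it rose by 2.69 ± 0.11 (adjusted p = 4.34e-07).

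In the loop and distal tubule 10 of 15 genes fell, 1 rose and 4 did not pass, with a median of -0.93. Egf, the precursor of epidermal growth factor made by the thick ascending limb and distal convoluted tubule (chromosome 3, positions 129471214 to 129548965, minus strand), had 25.7, 22.9 and 27.5 CPM in day-14 kidneys, against 698, 773 and 642 CPM in day-5 kidneys. It fell by 4.80 ± 0.10 (adjusted p = 5.06e-08), and untreated kidneys held 1618 ± 158 CPM. Slc12a1, the sodium-potassium-chloride cotransporter of the thick ascending limb, fell by 1.16 ± 0.11 (adjusted p = 4.07e-05), and Slc12a3, the thiazide-sensitive cotransporter of the distal convoluted tubule, fell by 1.40 ± 0.16 (adjusted p = 0.000104). Umod, uromodulin, the abundant urinary protein of the thick ascending limb, had 1854, 1887 and 1568 CPM in day-14 kidneys, against 3247, 3216 and 3656 CPM in day-5 kidneys. It fell by 0.93 ± 0.088 (adjusted p = 3.69e-05), with a control mean of 3170 ± 109 CPM. Cldn16, a tight junction protein of magnesium and calcium reabsorption, was the member that rose, 0.49 ± 0.068, adjusted p = 0.000326, a call lost in the fit of all 12 libraries (adjusted p = 0.133).

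The 15 collecting duct genes gave 5 rises, 5 falls and 5 that did not pass, shares near those of all genes (33.3% rising and 33.9% falling). The sign of their median of -0.07 turned round to 0.52 under library totals. Aqp2, the vasopressin-regulated water channel of principal cells, had 119, 129.8 and 141 CPM in day-14 kidneys, against 61.04, 61.2 and 53.3 CPM in day-5 kidneys and rose by 1.15 ± 0.079 (adjusted p = 6.06e-06). Hsd11b2, which shields the mineralocorticoid receptor from glucocorticoids, rose by 1.22 ± 0.18 (adjusted p = 0.000551). Slc26a4, the chloride and bicarbonate exchanger pendrin of intercalated cells, had 15.8, 14.6 and 17.4 CPM in day-14 kidneys, against 69.8, 65.5 and 58.3 CPM in day-5 kidneys, and it fell by 2.02 ± 0.087 (adjusted p = 5.75e-07). Scnn1g and Atp6v1b1 did not pass, at -0.01 ± 0.14, adjusted p = 0.931 and -0.07 ± 0.11, adjusted p = 0.603, and were at 0.57 and 0.52 under library totals.

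Ren1, renin, stood below the untreated level at day 14 and above it at day 5. The gene (chromosome 1, positions 133278248 to 133288063, plus strand) encodes the protease that starts the angiotensin cascade and is made by cells of the afferent arteriole. It had 14.6, 14.99 and 10.2 CPM in day-14 kidneys, against 156, 133 and 175 CPM in day-5 kidneys, and it fell by 3.54 ± 0.16 (adjusted p = 7.34e-07). The control mean was 51.8 ± 11.2 CPM, and every day-14 library lay below every control library and every day-5 library above. Among the 16 genes of fibroblasts and mural cells Ren1 was the only member called lower, while 14 rose.

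Of 23 transcription factors of the nephron 10 rose, 9 fell and 4 did not pass on the TMM scale, beside 33.3% of all genes rising and 33.9% falling. Under library totals 15 rose and 5 fell, with a median of 0.65. Pax2 and Pax8, which act in nephron formation, rose by 0.68 ± 0.060 (adjusted p = 2.56e-05) and 0.43 ± 0.056 (adjusted p = 0.000232). Esrrb, an orphan nuclear receptor, had 4.99, 5.32 and 4.41 CPM in day-14 kidneys, against 17.9, 21.999 and 24.02 CPM in day-5 kidneys and fell by 2.12 ± 0.12 (adjusted p = 2.63e-06). Lhx1 (-1.23 ± 0.10, adjusted p = 1.74e-05) and Irx1 (-1.46 ± 0.11, adjusted p = 8.4e-06), patterning factors of the developing nephron, fell with it. Sox11, a further developmental factor, rose by 2.61 ± 0.26 (adjusted p = 5.2e-05), at 3.66 ± 0.59 CPM at day 14 and 0.609 ± 0.228 CPM at day 5.

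Cell division genes were much lower at day 14 than at day 5. Of 25 mitosis genes, 24 fell, 21 of them more than 2-fold, with a median of -1.85, and Mybl2 did not pass. Of 25 DNA replication genes, 23 fell, 5 of them more than 2-fold, with a median of -0.86, and 13 of these still fell under library totals. The summed mitosis level was 141 ± 2.57 CPM at day 14 and 491 ± 158 CPM at day 5, with 40.4 ± 13.5 CPM in untreated kidneys. Day-5 replicate 1 was the lowest of its group at 312.9 CPM, against 546.2 and 615 CPM in the other day-5 libraries, and it still lay above all day-14 libraries.

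Mki67, the proliferation marker Ki-67, had 23.6, 21.9 and 22.5 CPM in day-14 kidneys, against 47.2, 87.1 and 105 CPM in day-5 kidneys, and it fell by 1.82 ± 0.26 (adjusted p = 0.000363). The mitotic kinase Cdk1 had 6.23, 5.81 and 6.11 CPM in day-14 kidneys, against 15.7, 25.997 and 25.7 CPM in day-5 kidneys, and it fell by 1.89 ± 0.19 (adjusted p = 4.69e-05). Its partner cyclin Ccnb1 fell by 2.25 ± 0.25 and Cdc20, which activates the anaphase-promoting complex, by 2.31 ± 0.28. Rrm2, the regulated subunit of ribonucleotide reductase, had 11.1, 11.04 and 11.001 CPM in day-14 kidneys, against 28.7, 44.1 and 43.9 CPM in day-5 kidneys. It fell by 1.82 ± 0.16 (adjusted p = 2.3e-05), whereas the replication clamp Pcna fell by 0.84 ± 0.067 (adjusted p = 1.38e-05) and the helicase subunit Mcm2 fell by 0.74 ± 0.083 (adjusted p = 9.35e-05). Mcm2 did not pass under library totals (log2 fold change -0.16, adjusted p = 0.141).

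Promoters of the mitosis and DNA replication genes were searched for the motifs named below. They run from 250 bases before to 50 bases after the start of the gene, from RefSeq on GRCm38.p6, a different build from that of the count table, and were matched by symbol for 20 of the 25 mitosis genes and 19 of the 25 replication genes. Searched on both strands, CCAAT was in 16 of the 20 mitosis promoters (80%), in 12 of the 19 replication promoters (63.2%) and in 37.9% of all 27025 promoters. TTTGAA, the core of the cell cycle homology region, was in 13 of the 20 mitosis promoters (65%), in 2 of the 19 replication promoters (10.5%) and in 18.1% of all. TTTCGCGC or TTTGGCGC, the E2F element, was in 6 of the 19 replication promoters (31.6%), in 1 of the 20 mitosis promoters (5%) and in 0.833% of all. Capitals mark CCAAT and TTTGAA in the mitosis promoters of Cdc20 (chr4:118437294-118437593, minus strand) and Ccnb2 (chr9:70421505-70421804, minus strand), and the E2F element, found on both strands with overlap, in the replication promoter of Mcm5 (chr8:75109259-75109558, plus strand). These promoters were chosen for holding the motifs marked, from called members taken in order of their falls. A match describes these letters and no binding was measured.
Cdc20: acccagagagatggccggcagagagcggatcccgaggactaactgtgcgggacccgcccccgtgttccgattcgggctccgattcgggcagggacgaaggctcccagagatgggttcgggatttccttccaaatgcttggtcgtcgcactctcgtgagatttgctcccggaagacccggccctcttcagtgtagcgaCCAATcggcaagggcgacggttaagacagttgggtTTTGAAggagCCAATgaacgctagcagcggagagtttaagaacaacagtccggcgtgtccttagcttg
Ccnb2: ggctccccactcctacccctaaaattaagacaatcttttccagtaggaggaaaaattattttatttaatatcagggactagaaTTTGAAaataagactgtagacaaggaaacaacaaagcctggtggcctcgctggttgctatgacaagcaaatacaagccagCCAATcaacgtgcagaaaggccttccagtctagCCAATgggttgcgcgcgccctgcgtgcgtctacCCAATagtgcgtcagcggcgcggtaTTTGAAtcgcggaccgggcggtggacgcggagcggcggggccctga
Mcm5: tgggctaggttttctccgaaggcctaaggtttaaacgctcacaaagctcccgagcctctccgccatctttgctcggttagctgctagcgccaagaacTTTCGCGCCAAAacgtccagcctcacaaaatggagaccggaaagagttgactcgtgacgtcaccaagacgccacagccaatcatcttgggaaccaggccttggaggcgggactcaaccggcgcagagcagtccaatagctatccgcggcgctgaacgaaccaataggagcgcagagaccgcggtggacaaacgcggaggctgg

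Of 17 known p53 targets 8 rose, 6 fell and 3 did not pass, beside 33.3% of all genes rising and 33.9% falling. The median was 0.02, the same as that of all genes. Under library totals 13 rose and 1 fell, with a median of 0.60. Cdkn1a, the cell cycle inhibitor p21, had 33.3, 36.6 and 32.2 CPM in day-14 kidneys, against 49.6, 67.5 and 77.1 CPM in day-5 kidneys, and it fell by 0.93 ± 0.14 (adjusted p = 0.00065), a call lost in the fit of all 12 libraries (adjusted p = 0.122) and under library totals (adjusted p = 0.068). The cell death genes Bbc3, which encodes PUMA, and Eda2r, a death receptor, rose by 1.92 ± 0.15 (adjusted p = 1.16e-05) and 2.17 ± 0.15 (adjusted p = 5.43e-06). Sesn2, a stress sensor, fell by 1.22 ± 0.06, and Mdm2, the negative regulator of p53, changed by -0.22 ± 0.040, adjusted p = 0.00173 with a log2 fold change of 0.37 under library totals.

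**Figure D2:**
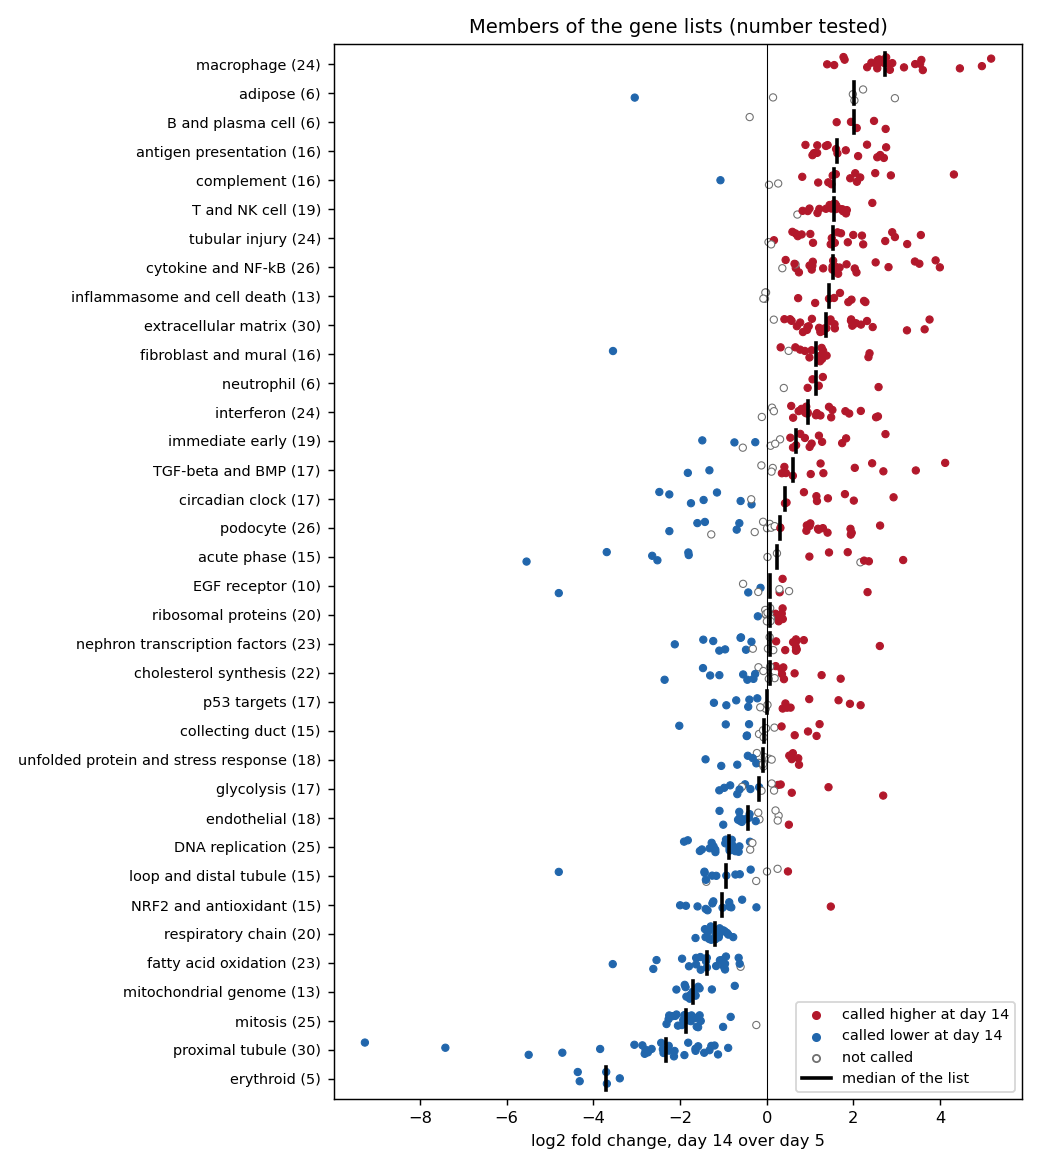
Log2 fold change of day 14 over day 5 (horizontal) for each tested member of the gene lists (rows, with the number tested), red where called higher, blue where called lower, open where not called, and a black bar at the median. The macrophage list lies wholly to the right and the proximal tubule, mitochondrial, respiratory chain and mitosis lists to the left, while sterol, glycolysis, acute phase and clock lists spread to both sides.

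Tubular injury genes rose further after day 5, 22 of 24 measured, 15 of them more than 2-fold, beside 33.3% and 8.37% of all genes. The median was 1.54, and Itgb6 and Tnfrsf12a did not pass. Havcr1, the phagocytic receptor KIM-1 of injured proximal tubules, had 614, 618 and 671 CPM in day-14 kidneys, against 237, 149 and 285 CPM in day-5 kidneys, and it rose by 1.5 ± 0.21 (adjusted p = 0.000315). Its day-5 libraries spread widely but stayed below every day-14 library, and untreated kidneys had 2.59 ± 0.656 CPM. Vcam1, an adhesion molecule that injured tubule cells can display, had 849, 859 and 749.9 CPM in day-14 kidneys, against 85.01, 75.9 and 98.5 CPM in day-5 kidneys and rose by 3.24 ± 0.11 (adjusted p = 1.9e-07). Cd44, the hyaluronan receptor, had 101, 102 and 103 CPM in day-14 kidneys, against 7.39, 8.19 and 10.2 CPM in day-5 kidneys, and it rose by 3.56 ± 0.10 (adjusted p = 1.11e-07). Lcn2, the siderophore binder NGAL, rose by 2.74 ± 0.13 (adjusted p = 8.1e-07), and Cp, the copper ferroxidase ceruloplasmin, rose by 2.96 ± 0.10 (adjusted p = 2.09e-07). Sox9, a factor of tubule repair, rose by 2.23 ± 0.16 (adjusted p = 6.76e-06) and Krt19, a keratin of simple epithelia, by 2.90 ± 0.15 (adjusted p = 1.17e-06). Krt20 rose by 0.81 ± 0.19 (adjusted p = 0.00581), and its call was lost in the fit of all 12 libraries (adjusted p = 0.271).

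Cytokine and NF-kB genes rose in 24 of 26 cases, 16 of them more than 2-fold, with a median of 1.53, and Il6 and Cxcl10 did not pass. The libraries of the days were apart for all 26, with day 14 above. They were apart for 72.3% of all genes tested, with day 14 above for 6855 of the 19026. Ccl2, the chemokine that draws CCR2-bearing monocytes, had 33.97, 35.6 and 54.5 CPM in day-14 kidneys, against 4.32, 4.17 and 3.16 CPM in day-5 kidneys, and it rose by 3.42 ± 0.22 (adjusted p = 4e-06). Ccl20, the ligand of CCR6, had 7.596, 6.404 and 7.76 CPM in day-14 kidneys, against 0.725, 0.699 and 0.482 CPM in day-5 kidneys, and it rose by 3.52 ± 0.18 (adjusted p = 1.2e-06). Tnf, at low level throughout, had 1.54, 1.3003 and 1.46 CPM in day-14 kidneys, against 0.132, 0.0839 and 0.0724 CPM in day-5 kidneys. It rose by 3.90 ± 0.27 (adjusted p = 6.06e-06), and Il1b rose by 2.81 ± 0.30 (adjusted p = 8.08e-05). Csf1, the growth factor of macrophages, had 49.3, 50.4 and 49.1 CPM in day-14 kidneys, against 15.4, 15.9 and 15.03 CPM in day-5 kidneys and rose by 1.68 ± 0.046 (adjusted p = 8.8e-08), and Traf1, a target and adaptor of NF-kB signalling, rose by 2.52 ± 0.14 (adjusted p = 2.19e-06).

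The NF-kB motif, read as GGG, any 2 bases and TTTCC and searched on both strands, was in 8 of the 18 promoters matched among the 26 cytokine and NF-kB genes (44.4%) and in 1.62% of all 27025 promoters. The promoters of Ccl20 (chr1:83116516-83116815, plus strand) and Csf1 (chr3:107760420-107760719, minus strand), again from RefSeq on GRCm38.p6, are shown as examples, with the match in capitals. Both were chosen for holding the motif and carry it on the opposite strand to the one printed. Factor binding was not measured here either.
Ccl20: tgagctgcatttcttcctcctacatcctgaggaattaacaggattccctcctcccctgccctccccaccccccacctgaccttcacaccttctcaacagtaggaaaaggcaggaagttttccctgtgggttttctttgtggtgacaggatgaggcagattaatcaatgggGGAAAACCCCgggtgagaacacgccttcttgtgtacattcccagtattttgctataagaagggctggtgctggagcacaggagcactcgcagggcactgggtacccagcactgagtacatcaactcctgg
Csf1: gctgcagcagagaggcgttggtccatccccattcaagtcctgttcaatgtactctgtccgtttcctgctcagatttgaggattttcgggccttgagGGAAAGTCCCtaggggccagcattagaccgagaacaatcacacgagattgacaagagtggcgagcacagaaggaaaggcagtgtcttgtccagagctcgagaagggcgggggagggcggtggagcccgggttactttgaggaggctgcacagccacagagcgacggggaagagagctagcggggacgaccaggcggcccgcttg

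Immediate early genes leaned upward, with 12 of 19 rising, 3 falling and 4 not passing. Klf4 and Klf6, zinc finger factors, rose by 1.83 ± 0.070 (adjusted p = 3.25e-07) and 1.28 ± 0.040 (adjusted p = 1.56e-07), and Egr2 by 1.74 ± 0.23 (adjusted p = 0.000281). Egr1 and Dusp1, which respond within minutes to stimulation, fell, Egr1 by 0.74 ± 0.11, a call lost under library totals (-0.16, adjusted p = 0.191), and Dusp1 at 29.998, 29.4 and 31.9 CPM in day-14 kidneys, against 82.01, 99.8 and 73.4 CPM in day-5 kidneys (-1.48 ± 0.11, adjusted p = 7.69e-06). Fos did not pass, and its libraries overlapped.

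Macrophage transcripts were high at day 14 and near the untreated level at day 5. All 24 macrophage genes rose more than 2-fold, with a median of 2.74, and their summed level was 1310 ± 18 CPM at day 14 and 166 ± 8.62 CPM at day 5, with 134 ± 20.6 CPM in untreated kidneys. Lyz2, the lysozyme of myeloid cells (chromosome 10, positions 117113236 to 117118226, minus strand), had 445, 427 and 439 CPM in day-14 kidneys, against 13.4, 15.1 and 13.4 CPM in day-5 kidneys, and it rose by 4.97 ± 0.066 (adjusted p = 2.63e-08). Adgre1, the F4/80 antigen, had 29.998, 28.3 and 30.3 CPM in day-14 kidneys, against 3.33, 3.47 and 3.06 CPM in day-5 kidneys. Ccr2, the receptor for Ccl2 on monocytes, had 91.4, 85.5 and 78.4 CPM in day-14 kidneys, against 7.49, 7.49 and 6.97 CPM in day-5 kidneys and rose by 3.54 ± 0.072 (adjusted p = 4.79e-08), and Cx3cr1, the fractalkine receptor, rose by 3.60 ± 0.11 (adjusted p = 1.55e-07). Trem2, a lipid receptor of tissue macrophages, had the largest rise of the list at 5.18 ± 0.24, with 5.14 ± 0.394 CPM at day 14 and 0.134 ± 0.0591 CPM at day 5. Csf1r, the receptor for Csf1, rose less than most of the list, by 1.40 ± 0.057 (adjusted p = 4.48e-07).

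Myeloid genes also supplied most of the 12 largest rises among expressed genes, a set chosen for size. Besides Lyz2 they were the lectins Siglec1 (4.59 ± 0.18, adjusted p = 3.49e-07), Clec4n (4.52 ± 0.12, adjusted p = 8.6e-08) and Clec7a (4.46 ± 0.097, adjusted p = 5.22e-08), the anaphylatoxin receptor C3ar1 (4.32 ± 0.13, adjusted p = 1.32e-07), the macrophage elastase Mmp12 (4.08 ± 0.14, adjusted p = 2.09e-07), Sirpb1c (4.05 ± 0.13, adjusted p = 1.68e-07) and Cd84 (4.01 ± 0.19, adjusted p = 9.77e-07). Outside the myeloid genes stood Islr2 (3.86 ± 0.22, adjusted p = 1.98e-06) and the gelatinase Mmp2. Ly6i rose by 4.44 ± 0.95, with levels that ran wide within the day at 8.98, 35.6 and 66.6 CPM in day-14 kidneys, against 4.29, 1.03 and 0.193 CPM in day-5 kidneys, and its call was lost with limma-voom (adjusted p = 0.0588). The last, a row named Mir6358, is not read as the microRNA, since its gene model has a length of 3762 bases for a span of 101.

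Lymphocyte genes rose from low levels, 18 of 19 T and NK cell genes, with a median of 1.55. Under the setting with fewest rises 9 rose, and the genes tested differed between settings. The T and NK cell genes summed to 24.1 ± 1.75 CPM at day 14 and 9.13 ± 0.869 CPM at day 5. Cd3e, a chain of the T cell receptor complex, had 0.848, 0.712 and 0.7301 CPM in day-14 kidneys, against 0.165, 0.196 and 0.314 CPM in day-5 kidneys, and Cd4 had 1.45, 2.18 and 2.07 CPM in day-14 kidneys, against 0.528, 0.587 and 0.458 CPM in day-5 kidneys. Of B and plasma cell genes 5 of 6 tested rose, Ighm, the heavy chain of IgM, by 2.75 ± 0.15 (adjusted p = 1.77e-06), while Cd79a and Ms4a1 were among the 6 members with too few counts to test. Of the neutrophil genes 5 of 6 tested rose, with Csf3r at 2.58 ± 0.24, adjusted p = 3.05e-05, and 7 others, Ly6g and Mpo among them, had too few counts.

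Antigen presentation genes rose in all 16 cases, 12 of them more than 2-fold, with a median of 1.62. Cd74, the invariant chain of MHC class II, had 1157, 1122 and 1211 CPM in day-14 kidneys, against 199.9, 173 and 195 CPM in day-5 kidneys, and it rose by 2.62 ± 0.070 (adjusted p = 8.54e-08). Ciita, the master regulator of class II genes, rose by 2.71 ± 0.13 (adjusted p = 1.07e-06), and B2m, the light chain of class I, rose by 1.17 ± 0.066 (adjusted p = 2.09e-06). Interferon-induced genes rose in 21 of 24 cases, with a median of 0.95. Irf7 had 32.6, 33.5 and 33.3 CPM in day-14 kidneys, against 11.8, 11.4 and 11.5 CPM in day-5 kidneys, and Oas2, a sensor of double-stranded RNA, rose by 2.52 ± 0.20 (adjusted p = 1.32e-05). Of 13 inflammasome and cell death genes 9 rose, Nlrp3 by 2.28 ± 0.30 (adjusted p = 0.000232), Gsdmd, the pore-former of pyroptosis, by 1.96 ± 0.12 (adjusted p = 3.26e-06) and the necroptosis kinase Ripk3 by 1.69 ± 0.18 (adjusted p = 6.82e-05).

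**Figure D3:**
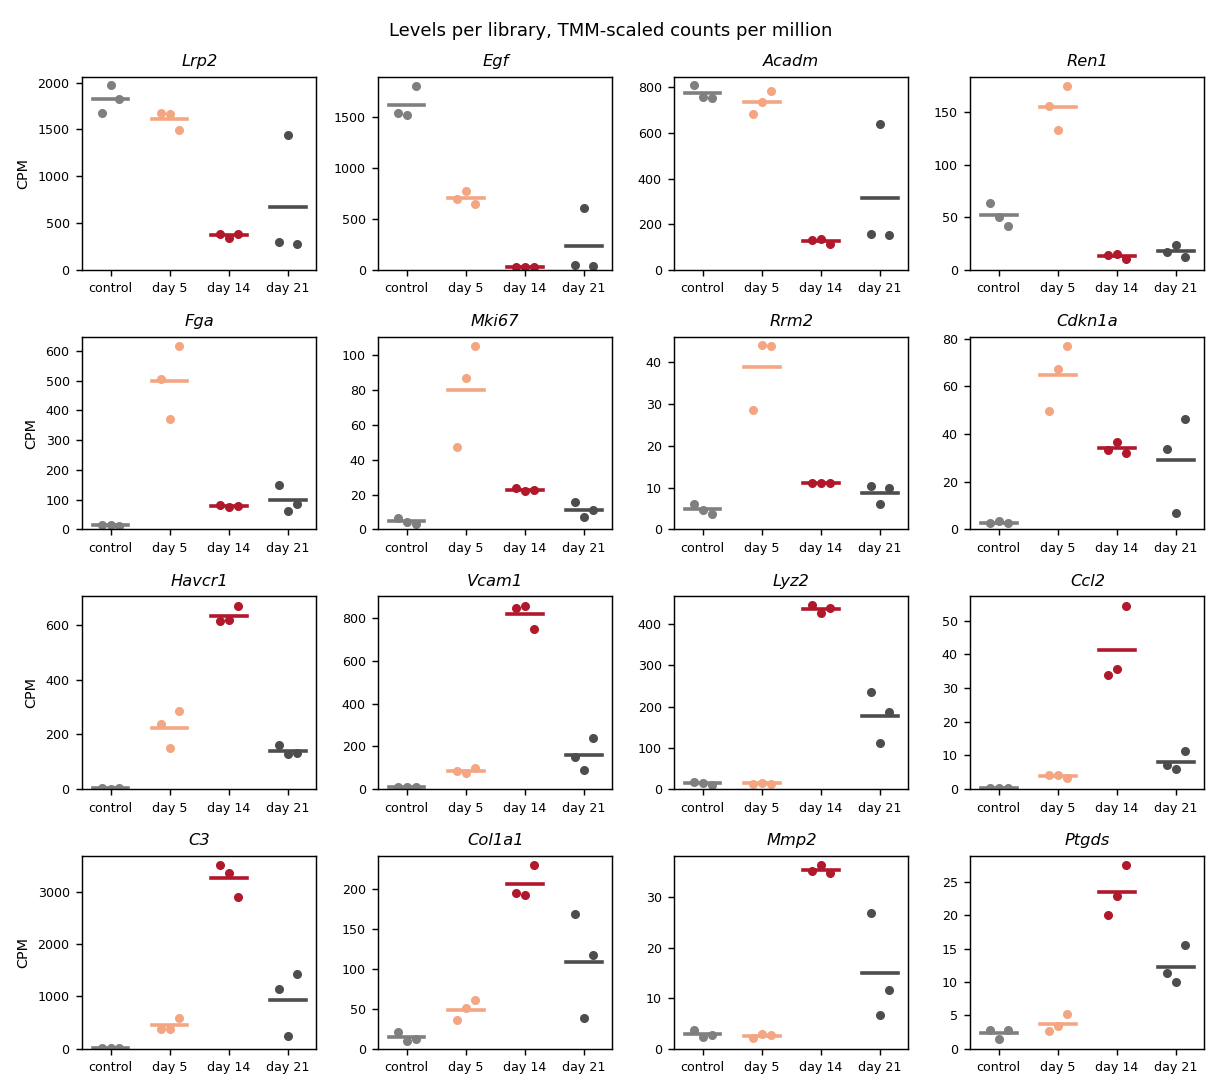
CPM per library (points) and group mean (line) for 16 genes in the order control, day 5, day 14 and day 21. Lrp2, Egf and Acadm are low at day 14, Ren1, Fga, Mki67, Rrm2 and Cdkn1a are highest at day 5, and the genes from Havcr1 to Ptgds are highest at day 14, while in several panels 1 of the 3 day-21 libraries lies apart from the others.

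Complement genes rose in 13 of 16 cases, 10 of them more than 2-fold, with a median of 1.56. C3, on which all complement pathways converge (chromosome 17, positions 57510970 to 57535136, minus strand), had 3505, 3362 and 2902 CPM in day-14 kidneys, against 380.2, 374 and 585 CPM in day-5 kidneys, and it rose by 2.87 ± 0.18 (adjusted p = 4.19e-06). Untreated kidneys had 18.6 ± 3.73 CPM. Cfp, properdin, which stabilises the alternative pathway convertase, rose by 2.16 ± 0.13 (adjusted p = 2.61e-06), but Cfb, factor B of the same pathway, did not pass, at 458, 457 and 445 CPM in day-14 kidneys, against 472, 412 and 426 CPM in day-5 kidneys. Cfb also had a high untreated level of 416 ± 65.8 CPM. Cd55, which dissolves the convertase on cell surfaces, was the member that fell, at 4.43, 4.78 and 3.63 CPM in day-14 kidneys, against 6.83, 10.3 and 9.695 CPM in day-5 kidneys (-1.07 ± 0.17, adjusted p = 0.000856).

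Acute phase genes divided, with 6 rising, 6 falling and 3 not passing of 15, beside 33.3% of all genes rising and 33.9% falling. More than 2-fold, 4 rose and 5 fell, beside 8.37% and 7.22% of all genes. Under library totals 9 rose and 6 fell, with a median of 0.82. The fibrinogen chains fell. Fga (chromosome 3, positions 82933383 to 82940934, plus strand) had 82.4, 76.9 and 80.2 CPM in day-14 kidneys, against 507, 369.6 and 617 CPM in day-5 kidneys, and it fell by 2.64 ± 0.17 (adjusted p = 4.24e-06), while untreated kidneys had 13.3 ± 1.75 CPM. Fgg fell by 2.52 ± 0.19 (adjusted p = 1.13e-05), and Fgb fell by 1.81 ± 0.16. Serum amyloid genes fell from low levels, Saa1 by 3.69 ± 0.40, at 0.296 ± 0.0887 CPM at day 14 and 3.89 ± 1.59 CPM at day 5. Socs3, a feedback inhibitor of signalling by the IL-6 family, rose instead at 28.2, 27.4 and 33.5 CPM in day-14 kidneys, against 6.001, 6.99 and 5.74 CPM in day-5 kidneys (2.25 ± 0.11, adjusted p = 9.09e-07), as did Osmr, the oncostatin M receptor (1.44 ± 0.058, adjusted p = 4.35e-07), and Serpina3n (2.36 ± 0.29, adjusted p = 0.000166). Hp, haptoglobin, was also called higher, a call lost with limma-voom (adjusted p = 0.0903), in the fit of all 12 libraries (adjusted p = 0.1) and without day-5 replicate 3 (adjusted p = 0.0605). It had 69.8, 66.9 and 8.62 CPM in day-14 kidneys, against 0.725, 11.3 and 4.08 CPM in day-5 kidneys, and its high libraries were those of the fat cell genes given below.

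Extracellular matrix genes rose in 29 of 30 cases, 14 of them more than 2-fold, with a median of 1.36, and Thbs1 did not pass. Col1a1, the main chain of fibrillar collagen I, had 194, 192 and 229 CPM in day-14 kidneys, against 35.7, 50.3 and 60.9 CPM in day-5 kidneys, and it rose by 2.06 ± 0.18 (adjusted p = 2.14e-05). Fn1, fibronectin, had 313, 292 and 289 CPM in day-14 kidneys, against 43.3, 66.2 and 69.6 CPM in day-5 kidneys and rose by 2.32 ± 0.16 (adjusted p = 6.87e-06). Among enzymes that cut matrix, Mmp2 had 35.2, 36.5 and 34.9 CPM in day-14 kidneys, against 2.24, 2.88 and 2.701 CPM in day-5 kidneys, and it rose by 3.76 ± 0.088 (adjusted p = 5.86e-08), with a control mean of 2.92 ± 0.802 CPM. Mmp14, which activates Mmp2, rose by 2.45 ± 0.091 (adjusted p = 2.94e-07), and Thbs2, a matricellular protein, rose by 3.24 ± 0.068 (adjusted p = 4.88e-08). Timp1, an inhibitor of these enzymes, rose by 0.58 ± 0.14 (adjusted p = 0.00738), at 24.2 ± 2.81 CPM at day 14 and 16.2 ± 3.16 CPM at day 5.

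Fibroblast and mural cell genes rose in 14 of 16 cases, though 3 did so more than 2-fold. Pdgfrb, the receptor of pericytes and fibroblasts, had 83.2, 81.4 and 79.97 CPM in day-14 kidneys, against 34.4, 40.8 and 43.7 CPM in day-5 kidneys, and it rose by 1.04 ± 0.081 (adjusted p = 1.21e-05). Acta2, the smooth muscle actin of myofibroblasts, had 105, 108 and 113 CPM in day-14 kidneys, against 34.1, 53.5 and 52.3 CPM in day-5 kidneys, and it rose by 1.22 ± 0.15 (adjusted p = 0.000182), a call lost in the fit of all 12 libraries (adjusted p = 0.0608). Of 17 TGF-beta and BMP genes 12 rose and 2 fell. Tgfb1, Tgfb2 and Tgfb3 rose by 1.24 ± 0.096 (adjusted p = 1.13e-05), 2.43 ± 0.11 (adjusted p = 6.36e-07) and 2.03 ± 0.14 (adjusted p = 5.34e-06), and Ltbp2, a binding protein of the matrix, had 35.2, 34.5 and 30.1 CPM in day-14 kidneys, against 2.11, 3.21 and 3.71 CPM in day-5 kidneys. Grem1, an antagonist of BMPs, rose by 4.12 ± 0.23, at 4.46 ± 0.441 CPM at day 14 and 0.26 ± 0.0905 CPM at day 5. Bmp7, a factor that maintains tubule epithelium, fell, at 8.71, 9.84 and 10.003 CPM in day-14 kidneys, against 22.6, 23.7 and 24.8 CPM in day-5 kidneys (-1.32 ± 0.073, adjusted p = 1.92e-06), and so did the activin subunit Inhbb (-1.82 ± 0.15, adjusted p = 1.66e-05).

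Endothelial genes fell modestly, 12 of 18 with none past 2-fold, 1 rising and 5 not passing, and the median of -0.43 became 0.16 under library totals, where 2 fell and 7 rose. Pecam1 had 35.1, 34.3 and 31.4 CPM in day-14 kidneys, against 47.2, 53.7 and 49.1 CPM in day-5 kidneys (-0.57 ± 0.064, adjusted p = 0.0001, and 0.01 under library totals), and Esam fell by 1.09 ± 0.089 (adjusted p = 1.68e-05). Eng, endoglin, was the member that rose, by 0.51 ± 0.092 (adjusted p = 0.00143). The EGF receptor family gave 3 rises, 3 falls and 4 that did not pass of 10, beside 33.3% of all genes rising and 33.9% falling. Its median of 0.08 became 0.66 under library totals, where 7 rose and 1 fell. The median changed sign without day-5 replicate 1 and with the filter of at least 1 CPM in 3 libraries. Beside the fall of Egf its receptor Egfr had a small fall, at 64.6, 63.5 and 61.4 CPM in day-14 kidneys, against 66.4, 73.8 and 68.7 CPM in day-5 kidneys (-0.14 ± 0.050, adjusted p = 0.036, and 0.44 under library totals). Its call was also lost without day-5 replicate 2 (adjusted p = 0.12), with a replicate block (adjusted p = 0.0603) and in the fit of all 12 libraries (adjusted p = 0.363).

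The podocyte list divided, with 14 of 26 genes rising, 5 falling and 7 not passing, beside 33.3% of all genes rising and 33.9% falling. The median was 0.31, and under library totals 19 rose and 3 fell, with a median of 0.90. Summed over the list, the level was lower at day 14, at 1360 ± 15.2 CPM, than at day 5, at 1560 ± 30.7 CPM. Untreated kidneys held 1640 ± 33.3 CPM. Nphs1, nephrin of the slit diaphragm, was low in both groups, with 0.598, 0.613 and 0.268 CPM in day-14 kidneys, against 1.19, 1.98 and 1.35 CPM in day-5 kidneys. It fell by 1.60 ± 0.33 (adjusted p = 0.00323), but the call was lost in the fit of all 12 libraries (adjusted p = 0.284), and untreated kidneys had 22.2 ± 2.304 CPM. Podxl, podocalyxin, which endothelium also makes, did not pass, at 63.2, 62.05 and 59.9 CPM in day-14 kidneys, against 59.6, 71.1 and 65.2 CPM in day-5 kidneys, and was at 0.50 under library totals.

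Podocyte-list genes that rose included Ptpro, a receptor phosphatase of foot processes, at 5.92, 5.77 and 5.695 CPM in day-14 kidneys, against 1.42, 1.76 and 1.28 CPM in day-5 kidneys, with a control mean of 15.6 ± 0.876 CPM. Ptgds, prostaglandin D synthase, had 20.1, 22.96 and 27.6 CPM in day-14 kidneys, against 2.704, 3.44 and 5.19 CPM in day-5 kidneys, and it rose by 2.62 ± 0.22 (adjusted p = 1.84e-05). Its control mean was 2.37 ± 0.720 CPM. Nes, the intermediate filament nestin, had 87.1, 80.8 and 80.6 CPM in day-14 kidneys, against 18.5, 24.9 and 21.2 CPM in day-5 kidneys, with a control mean of 23.5 ± 2.07 CPM. Tcf21, a factor of podocytes and of stromal cells, rose by 1.94 ± 0.12 (adjusted p = 3.26e-06), and Wt1 by 0.93 ± 0.14, at 3.07 ± 0.324 CPM at day 14 and 1.61 ± 0.085 CPM at day 5. The collagen IV chains moved apart. Col4a3, of the mature glomerular membrane and made by podocytes, had 60.3, 59.99 and 54.7 CPM in day-14 kidneys, against 259, 282 and 288 CPM in day-5 kidneys, and it fell by 2.24 ± 0.063 (adjusted p = 1.05e-07), with its partner Col4a4 down by a log2 change of -1.42 ± 0.06. Col4a1 and Col4a2, found in most basement membranes, rose by 0.41 ± 0.11 and 0.54 ± 0.11. In Col4a3 the day-5 libraries lay above the control mean of 219 ± 13.7 CPM.

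Clock genes divided, with 9 of 17 rising, 7 falling and Per1 not passing, beside 33.3% of all genes rising and 33.9% falling. More than 2-fold, 5 rose and 4 fell, beside 8.37% and 7.22% of all genes. Under library totals 10 rose and 5 fell, with a median of 1.01. In the core clock Arntl and Npas2 pair with Clock to activate transcription, the Per and Cry proteins repress it, and Nr1d1 represses Arntl. Arntl, also called Bmal1, had 6.902, 6.62 and 7.03 CPM in day-14 kidneys, against 20.7, 25.02 and 23.2 CPM in day-5 kidneys, and Npas2 had 2.91, 2.797 and 2.896 CPM in day-14 kidneys, against 12.1, 14.3 and 14.4 CPM in day-5 kidneys. They fell by 1.75 ± 0.08 and 2.25 ± 0.10. Nr1d1 fell as well, at 6.84, 6.38 and 6.23 CPM in day-14 kidneys, against 39.5, 33.9 and 35.1 CPM in day-5 kidneys (-2.48 ± 0.078, adjusted p = 1.62e-07). Per3 had 17.8, 18.5 and 16.5 CPM in day-14 kidneys, against 2.21, 2.46 and 2.24 CPM in day-5 kidneys, and it rose by 2.93 ± 0.085 (adjusted p = 1.19e-07), while Per2 rose by 2.01 ± 0.12 (adjusted p = 2.53e-06). Dbp, an output of the clock, had 15.2, 14.4 and 13.2 CPM in day-14 kidneys, against 4.22, 3.97 and 4.03 CPM in day-5 kidneys, and it rose by 1.81 ± 0.083 (adjusted p = 7.42e-07), though both days lay far below its control mean of 104 ± 30.2 CPM. The replicates of a day lay close together in these genes, and the day of the experiment cannot be told apart from the hour of harvest.

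**Figure D4:**
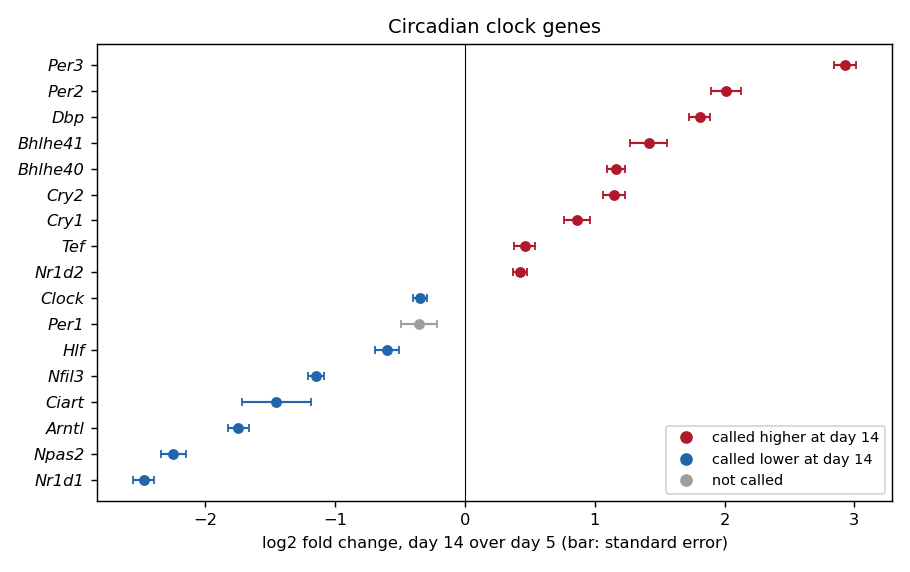
Log2 fold change of day 14 over day 5 with its standard error for 17 circadian clock genes, red where called higher, blue where called lower and grey for Per1. Per3, Per2 and Dbp lie furthest to the right and Nr1d1, Npas2 and Arntl furthest to the left.

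Of 18 genes of the unfolded protein and stress response 5 rose, 6 fell and 7 did not pass, with a median of -0.08. These shares lay near those of all genes, 33.3% rising and 33.9% falling. Under library totals the median turned to 0.51, with 14 rising and 1 falling. Herpud1, which clears misfolded protein from the endoplasmic reticulum, had 125, 127 and 127 CPM in day-14 kidneys, against 349, 331 and 327 CPM in day-5 kidneys, and it fell by 1.41 ± 0.046 (adjusted p = 1.82e-07). Ddit3, the factor CHOP, and Asns, asparagine synthetase, rose by 0.58 ± 0.13 (adjusted p = 0.00411) and 0.73 ± 0.092 (adjusted p = 0.000192), with the call of Asns lost in the fit of all 12 libraries (adjusted p = 0.0573). Hspa5, the chaperone BiP, and Atf4 did not pass (-0.07 ± 0.083, adjusted p = 0.46 for Hspa5 and -0.18 ± 0.082, adjusted p = 0.0791 for Atf4, at 0.51 and 0.40 under library totals). Ribosomal protein genes lay near the middle of all genes, with 7 rising, 1 falling and 12 not passing of 20, and log2 fold changes between -0.20 and 0.37. Under library totals all 20 rose, with a median of 0.67 against 0.61 for all genes.

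Red blood cell and fat cell genes differed between libraries of 1 day. The 6 red cell genes summed to 9.582, 10.55 and 137.6 CPM in day-14 kidneys, against 673.9, 837.5 and 875.5 CPM in day-5 kidneys, and all 5 tested fell. The 7 fat cell genes summed to 269.3, 266.5 and 35.17 CPM in day-14 kidneys, against 46.33, 220.1 and 58.8 CPM in day-5 kidneys, and Adipoq, adiponectin, had 49.4, 50.2 and 2.799 CPM in day-14 kidneys, against 0, 23.5 and 2.24 CPM in day-5 kidneys. Of the 6 fat genes tested none rose, but without day-5 replicate 2 the test called 5 fat genes higher, Adipoq among them (log2 fold change 4.78, adjusted p = 0.0273). Ucp1, of brown fat, fell by 3.04 ± 1.13 (adjusted p = 0.0426), a call lost without that library (adjusted p = 0.333). Hp was high in the same libraries as Adipoq, and without day-14 replicates 1 and 2 its log2 fold change was 0.67 (adjusted p = 0.601). That fit has a single day-14 library, replicate 3, which is assumed to vary as the 3 day-5 libraries do. In it 4973 genes rose and 5289 fell, and the 30 proximal tubule and 24 macrophage genes had the same calls. Adrenal genes summed to 1.812, 5.815 and 6.912 CPM in day-14 kidneys, against 5.935, 25.27 and 12.25 CPM in day-5 kidneys, mostly from Hsd3b1 except in day-14 replicate 1. Hsd3b1 had 23 to 865 counts a library, while Cyp11a1, Cyp11b1, Cyp11b2 and Cyp21a1, the defining enzymes of adrenal steroid synthesis, had 0 to 6 counts in each library. The part of these tissues in other changes was not tested.

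**Figure D5:**
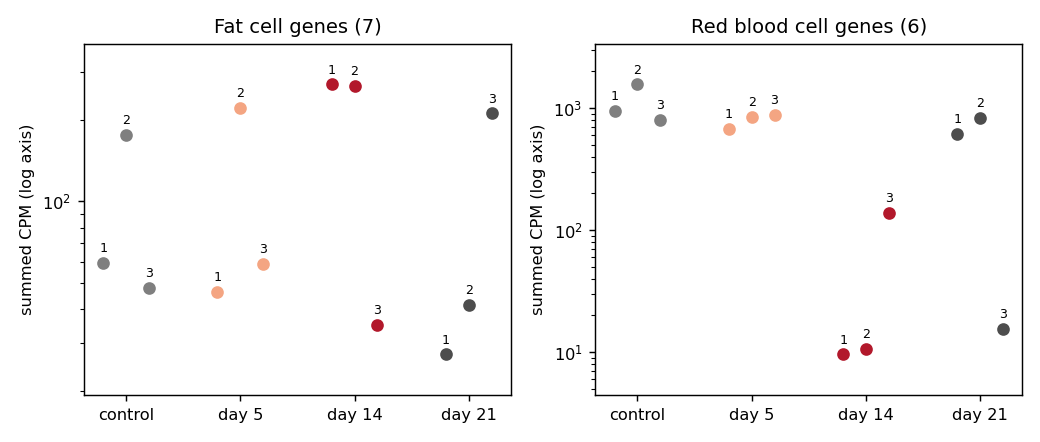
Summed CPM (log axis) of 7 fat cell genes and 6 red blood cell genes in each library, numbered by replicate, in the order control, day 5, day 14 and day 21. Day-14 replicates 1 and 2 are high in fat and low in red cell genes, and day-14 replicate 3 is at 35.17 CPM for fat and 137.6 CPM for red cell genes.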

How the data were processed

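Per the labels' protocols, total RNA of whole kidney was DNase-treated and poly(A)-selected. The authors deposited raw counts of reads per gene. Per the submitters' processing notes, fastp 0.20.0 and featureCounts were used with build GRCm39; the aligner, annotation release and strand setting are unknown from the sources used here. Counts of the 3 day-14 and 3 day-5 libraries were fitted in R 4.3.3 with edgeR 4.0.16, which runs on limma 3.58.1, with filterByExpr, TMM factors over all 12 libraries and Benjamini-Hochberg adjustment over all 19026 genes, two-sided. Changes of more than 2-fold were tested with glmTreat. Log2 CPM values used a prior count of 2.

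The table gives gene lengths as deposited, used only to describe Mir6358. No replicates were identical: chi-square per degree of freedom was 4.9 between replicates 1 and 2 of day 14 and 12.8 to 20.3 between the other pairs of a group. P-values measure the spread between these samples. The members, lists and tests were chosen with earlier results of these data known, and no set test was run. Named genes were the anchors of the 38 lists, the 12 largest rises and 12 largest falls whose mean log2 CPM reached 1 and whose groups lay apart, and the leading members of each list. Not all of them are printed. Trem2, Cubn, Slc7a11, Sox9, Sox11, Krt19, Grem1, Saa1, Fgb, Col4a1, Col4a2, Col4a4, Wt1, Tcf21, Timp1, Fdps and members named for not passing were chosen after their values were seen. Alternatives included DESeq2 1.42.0, limma-voom, other scalings, filters and sets of libraries, and leaving out each library in turn. The fit was tested on simulated data with 200 changed genes, as many rising as falling, so the choice of scaling was not tested. Some genes are not reported here.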

Additional observations from a re-analysis of the deposited data

How the results depend on the processing

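With library totals alone, the counts were 13064 genes higher, 2438 lower, 3683 more than 2-fold higher and 643 more than 2-fold lower at day 14, and 2923 of the 12793 called genes changed sign. Under that scaling the log2 fold changes of these genes reported here turned positive: Atf4 0.40, Atp6v1b1 0.52, Egfr 0.44, Eif2s3y 0.28, Erbb4 0.16, Hbegf 0.39, Hspa5 0.51, Kdr 0.19, Mdm2 0.37, Pecam1 0.0124, Podxl 0.50, Rps2 0.38 and Scnn1g 0.57. In the fit of all 12 libraries, which holds the wide day-21 group, 10001 genes were called and 1424 changed more than 2-fold, 893 higher and 531 lower. Once day-21 replicate 2 was left out, 11976 were called and 2785 changed more than 2-fold. The other scalings, filters and tools called between 11567 (CPM of at least 1 in 3 libraries) and 13216 (no filter on low counts). Leaving out 1 library at a time gave 11615 to 12623 calls, 5702 to 6296 higher and 5913 to 6327 lower, and 2631 to 2946 more than 2-fold. Without day-14 replicates 1 and 2, chosen after seeing the data, 10262 genes were called, with the lone day-14 library assumed to vary as the day-5 libraries do.

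Deviations from the group mean had correlations of -0.168, 0.174 and -0.0592 between same-numbered libraries. Between differently numbered ones they ran from -0.202 to 0.235. With 3 libraries a group these values cannot decide whether the numbers pair samples. With a replicate block 12054 genes were called. All 30 proximal tubule and all 24 macrophage genes kept their call and direction under every alternative run. The number of T and NK cell rises ran from 9 to 19. Genes under 1 CPM, such as Nphs1 and Cd3e, rest on few counts.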

Other observations

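Families of genes that share a symbol stem, with at least 15 tested members, were taken after the values were seen. Some, the Slc, Cyp, Ifi and Mmp families among them, include genes of the lists above. Mitochondrial ribosomal genes fell, 29 of 30 Mrps genes and 46 of 52 Mrpl genes, with medians of -0.62 and -0.66. Pex genes, which build peroxisomes, fell in 16 of 17 cases with a median of -0.68, and Ugt genes, the glucuronosyltransferases, in 15 of 17 with a median of -0.88. Of 49 Cyp genes, the cytochromes P450, 13 rose and 28 fell. Of 312 Slc genes, the solute carriers, 79 rose and 175 fell, 14 and 76 of them more than 2-fold. Across all genes 33.3% rose and 33.9% fell. The family counts are on the TMM scale and were not taken under library totals. There the median of all genes was 0.61, against 0.02 with TMM factors, so family falls with medians as small as those of Mrps, Mrpl and Pex rest on the scaling.

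In the other direction, Ifi genes, induced by interferon, rose in 16 of 18 cases with a median of 1.66, Adam proteases in 14 of 16 with a median of 1.18, and Mmp metalloproteinases in 12 of 18 with a median of 1.60. Of 19 Pcdhb genes, clustered protocadherins known from neurons, 14 rose and none fell, with a median of 0.87. Members of such a cluster are similar in sequence and may share reads. None of these families was tested as a set.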
